A study of Caenorhabditis elegans with 15 samples.

Results

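The 8 genes described here encode the enzymes and accessory proteins that modify and trim collagen on its way into the cuticle and basement membrane of *C. elegans*. They are *dpy-18*, *phy-2*, *pdi-2*, *let-268*, *bli-4*, *bli-5*, *dpy-31* and *adt-2*. They were taken by name from the 46911 genes of the count table, with earlier results of these data known. All 8 passed the filter on low counts in every comparison. RNA came from whole starved L1 larvae in 5 groups, and each group had 3 biological replicates, which makes 15 libraries. The mutants carry alleles of *eff-1*, which encodes the fusogen that joins epidermal cells into the hyp7 syncytium. In the first experiment S441L (allele *oj55*, strain WH171) and P183L (allele *hy21*, strain BP76) were grown in parallel with WT animals of the N2 strain, called WT batch 1 here. In the second, P37Stop was grown with WT animals called WT batch 2. S441L and P183L came from mutagenesis screens, are described as partial reductions of function and may hold background mutations, and both carry the array jcIs1, which holds an AJM-1 fusion to GFP with *unc-29*(+) and *rol-6*(*su1006*). P37Stop is a putative null made by CRISPR, with stop codons in exon 1, in animals carrying the AJM-1 reporter kuIs46 with *unc-119*(+) and the histone reporter bqSi640, which the *dpy-7* promoter drives. The WT groups lack the *eff-1* mutations, and they are not stated to carry the reporters or background mutations of the mutant strains. Allele and strain background therefore cannot be told apart in any comparison of a mutant with WT.

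Collagen chains are modified in the endoplasmic reticulum before they fold. Prolyl 4-hydroxylase stabilises the triple helix by hydroxylating prolines, and in *C. elegans* its catalytic α subunits are DPY-18 and PHY-2, while the protein disulfide isomerase PDI-2 is the β subunit. LET-268 is the lysyl hydroxylase needed to process the type IV collagen of basement membranes. Cuticle procollagens are then cut near their N terminus by subtilisin-like convertases such as BLI-4 and at their C terminus by the astacin metalloprotease DPY-31, for which the collagen SQT-3 is a known substrate. BLI-5 is a secreted protein with a Kunitz domain, the fold of a family of serine protease inhibitors, and thus is not itself an enzyme of collagen. ADT-2 is a secreted metalloprotease of the ADAMTS family that affects body size and the organisation of cuticle collagen. The tyrosine cross-links of the cuticle are made by the dual oxidase BLI-3 with peroxidases, none of which is among the 8 genes.

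On WBcel235 the genes lie on 5 chromosomes. The α subunit genes *dpy-18* (WBGene00001077, III, 11372886 to 11377980, minus strand) and *phy-2* (WBGene00004025, IV, 12211097 to 12215987, minus strand) each have 1 annotated transcript. The gene *pdi-2* (WBGene00003963) lies on X from 4524155 to 4526536 on the plus strand, and *let-268* (WBGene00002497) on II from 10033266 to 10039980 on the minus strand. The convertase gene *bli-4* (WBGene00000254, I, 6342224 to 6356680, plus strand) is the longest, with 11 transcripts and 7570 bp of exons, against 747 bp for *bli-5* (WBGene00000255, III, 13427640 to 13429768, minus strand). The metalloprotease genes are *dpy-31* (WBGene00006592, III, 7202206 to 7207664, plus strand) and *adt-2* (WBGene00000083, X, 7586209 to 7595416, plus strand). Exons of *bli-5* share 82 bp with *cope-1* on the other strand and those of *bli-4* share 67 bp with *mut-2*. Whether the counting used strand is not given in the sources used here, so reads in these stretches cannot be assigned to one gene with certainty.

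Total counts per library lay between 35858217 and 47820215, so that 3 counts corresponded to 0.0627 to 0.0837 CPM, the counts scaled to library size. The libraries of P37Stop and WT batch 2 varied more among themselves, with a biological coefficient of variation of 0.214 in P37Stop against WT batch 2, 0.0738 in S441L and 0.0659 in P183L against WT batch 1. Epidermal markers were present in every library, at a summed level of 242 to 590 CPM over 5 genes. The targeted gene *eff-1* was at 18.4 ± 1.6 CPM in P37Stop and 27 ± 2.65 CPM in WT batch 2 (SD, n = 3 each), a log2 fold change of -0.52 (adjusted p = 0.0104, edgeR's quasi-likelihood test). In S441L and P183L, whose alleles change single residues, it was at 32.2 ± 1.85 and 33 ± 2.19 CPM, against 28.7 ± 2.21 CPM in WT batch 1 (SD, n = 3 each).

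In P37Stop, the 3 prolyl 4-hydroxylase genes and *let-268* were upregulated and *adt-2* was downregulated, while *bli-4*, *bli-5* and *dpy-31* were not called. A gene was called, here and below, at an adjusted p below 0.05 (Benjamini-Hochberg, edgeR's quasi-likelihood test) and a change of more than 0.5 on the log2 scale in either direction. Thus 5 of 8 genes were called, against 18.6% of the 15780 genes tested, with 4 of 8 higher, against 12.7%, and 1 of 8 lower, against 5.90%. The median log2 fold change of the 8 genes was 0.65, and that of all genes 0.02. The count depended on the libraries used: it was 3 without P37Stop replicate 1, without WT batch 2 replicate 2 or without WT batch 2 replicate 3, and 3 with WT batch 1 as the control, with *dpy-18*, *let-268* and *adt-2* called each time and *phy-2* and *pdi-2* lost.

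In S441L, *phy-2* and *bli-5* were upregulated and *adt-2* was downregulated. That is 3 of 8 genes, against 40.0% of the 15685 genes tested (24.2% higher and 15.8% lower), so the share called was near that of all genes. The median log2 fold change of the 8 genes was 0.32, against 0.03 for all genes. The other 5 genes all had positive log2 fold changes, between 0.15 for *bli-4* and 0.45 for *dpy-18*, with adjusted p from 9.24e-06 to 0.00562, and missed the call only through the limit of 0.5 on the fold change. With scaling by total counts, or with WT batch 2 as the control, *dpy-18* and *let-268* were called as well, 5 genes in all.

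In P183L, the genes of the endoplasmic reticulum and *adt-2* had their largest changes of the 3 mutants. The genes *dpy-18*, *phy-2*, *pdi-2* and *let-268* were upregulated 7.01-fold to 14.3-fold, *adt-2* was downregulated 10.7-fold and *dpy-31* was downregulated 1.61-fold. The 6 of 8 genes called stand beside 80.4% of the 15884 genes tested (40.2% higher and 40.2% lower), so the number of calls alone did not set these genes apart. The median log2 fold change of the 8 genes was 1.70, against 0.02 for all genes. Between the WT groups, WT batch 2 against WT batch 1, 1 of 8 genes was called, *let-268*, which was lower, against 32.9% of the 15408 genes tested (14.3% lower). S441L and P183L were both set against WT batch 1, so their values are not independent of each other.

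**Figure D1:**
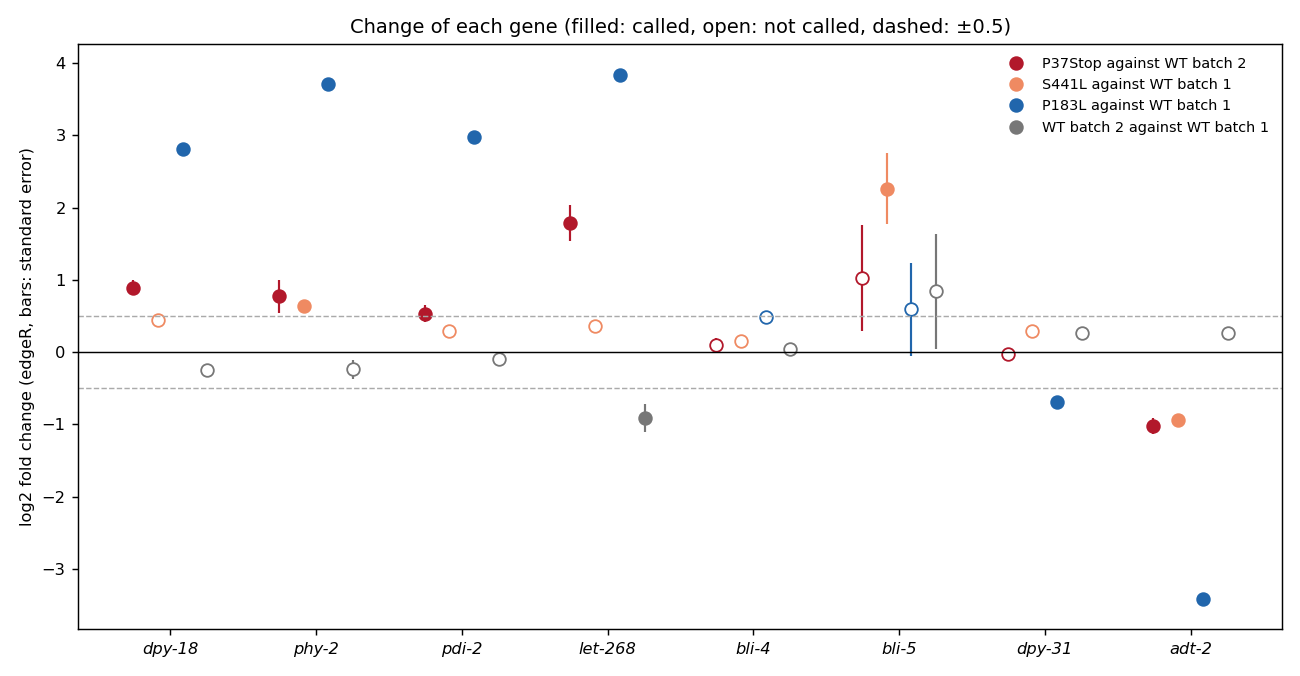
Log2 fold change of each of the 8 genes in P37Stop against WT batch 2, S441L and P183L against WT batch 1, and WT batch 2 against WT batch 1. Points are estimates of edgeR's quasi-likelihood fit, bars are SEs, filled points were called, and dashed lines mark 0.5 and -0.5. The 4 endoplasmic reticulum genes reach 2.81 to 3.84 in P183L and *adt-2* reaches -3.42, while *bli-4* stays between 0.05 and 0.48.

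Libraries can also be set against each other one by one. The counts of the 8 genes used CPM scaled over all 15 libraries, and the shares of all genes used scaling within the libraries of each comparison. The gene *dpy-31* is counted below WT in P37Stop although the nearest libraries both round to 89.6 CPM, so that count may depend on the scaling. All P37Stop libraries lay above all WT batch 2 libraries for 4 of 8 genes (23.0% of all genes) and below them for 2 of 8 (20.3%). For S441L this held for 7 of 8 genes above (5807 of the 15685 genes tested) and 1 of 8 below (33.4%), and for P183L for 5 of 8 above (46.3%) and 2 of 8 below (45.0%). WT batch 2 lay wholly above WT batch 1 for 2 of 8 genes (31.5%) and below it for 3 of 8 (29.6%).

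The scaling bears on these directions. With total counts in place of TMM the median over all genes became 0.24 in P37Stop, 0.21 in S441L and 0.53 in P183L on the log2 scale, and each gene's value moved up by about as much. Under that scaling *dpy-31* had a log2 fold change of 0.19 in P37Stop and -0.19 in P183L, so that its sign in P37Stop depended on the scaling.

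The transcript of *dpy-18*, the α subunit gene whose loss gives short, dumpy animals, had 70.7, 59.9 and 61.5 CPM in the P37Stop libraries and 35.8, 32 and 37.5 CPM in those of WT batch 2. All P37Stop libraries lay above all WT libraries, and the log2 fold change was 0.89 (standard error, SE, 0.101, adjusted p = 0.000144). In S441L it had 57.8, 61.5 and 57.5 CPM and in P183L 323, 323 and 324 CPM, against 41.2, 47.5 and 45.1 CPM in WT batch 1. Neither mutant overlapped with WT batch 1, and the log2 fold change was 0.45 (SE 0.0539, adjusted p = 9.24e-06) in S441L, under the limit for a call, and 2.81 (SE 0.0485, adjusted p = 3.21e-14) in P183L. In bulk RNA, a changed number of cells of a type and a changed amount of RNA per cell cannot be told apart, here or for any gene below. Over the 5 groups the order of mean CPM was P183L, P37Stop, S441L, WT batch 1 and WT batch 2, and only P37Stop and S441L overlapped as neighbours.

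The other α subunit gene, *phy-2*, had 32, 18.4 and 17.7 CPM in P37Stop and 15.2, 10.8 and 14.8 CPM in WT batch 2. The groups did not overlap, but replicate 1 of P37Stop stood well above the other two, and the log2 fold change was 0.77 (SE 0.227, adjusted p = 0.0279). Without that replicate it was 0.43 (adjusted p = 0.101), and leaving out any WT batch 2 library also raised the adjusted p above 0.05. In S441L *phy-2* had 25.3, 26.5 and 26.4 CPM and in P183L 235, 228 and 237 CPM, against 16.3, 17.6 and 17.8 CPM in WT batch 1. Both mutants lay wholly above WT, with log2 fold changes of 0.64 (SE 0.0567, adjusted p = 4.93e-07) in S441L and 3.71 (SE 0.0465, adjusted p = 2.74e-15) in P183L. S441L overlapped with P37Stop, and P37Stop overlapped with WT batch 1.

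The β subunit gene *pdi-2* had 539, 499 and 460 CPM in P37Stop and 414, 304 and 337 CPM in WT batch 2, without overlap, and a log2 fold change of 0.53 (SE 0.116, adjusted p = 0.00649). This was close to the limit, and leaving out P37Stop replicate 1, WT batch 2 replicate 2 or WT batch 2 replicate 3 gave 0.47, 0.44 and 0.50. In P183L its 3190, 3298 and 3377 CPM stood far above the 390, 413 and 413 CPM of WT batch 1, a log2 fold change of 2.97 (SE 0.0458, adjusted p = 1.32e-14). In S441L it had 475, 493 and 479 CPM, above every WT batch 1 library, with a log2 fold change of 0.29 (adjusted p = 2.23e-05) that was not called.

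**Figure D2:**
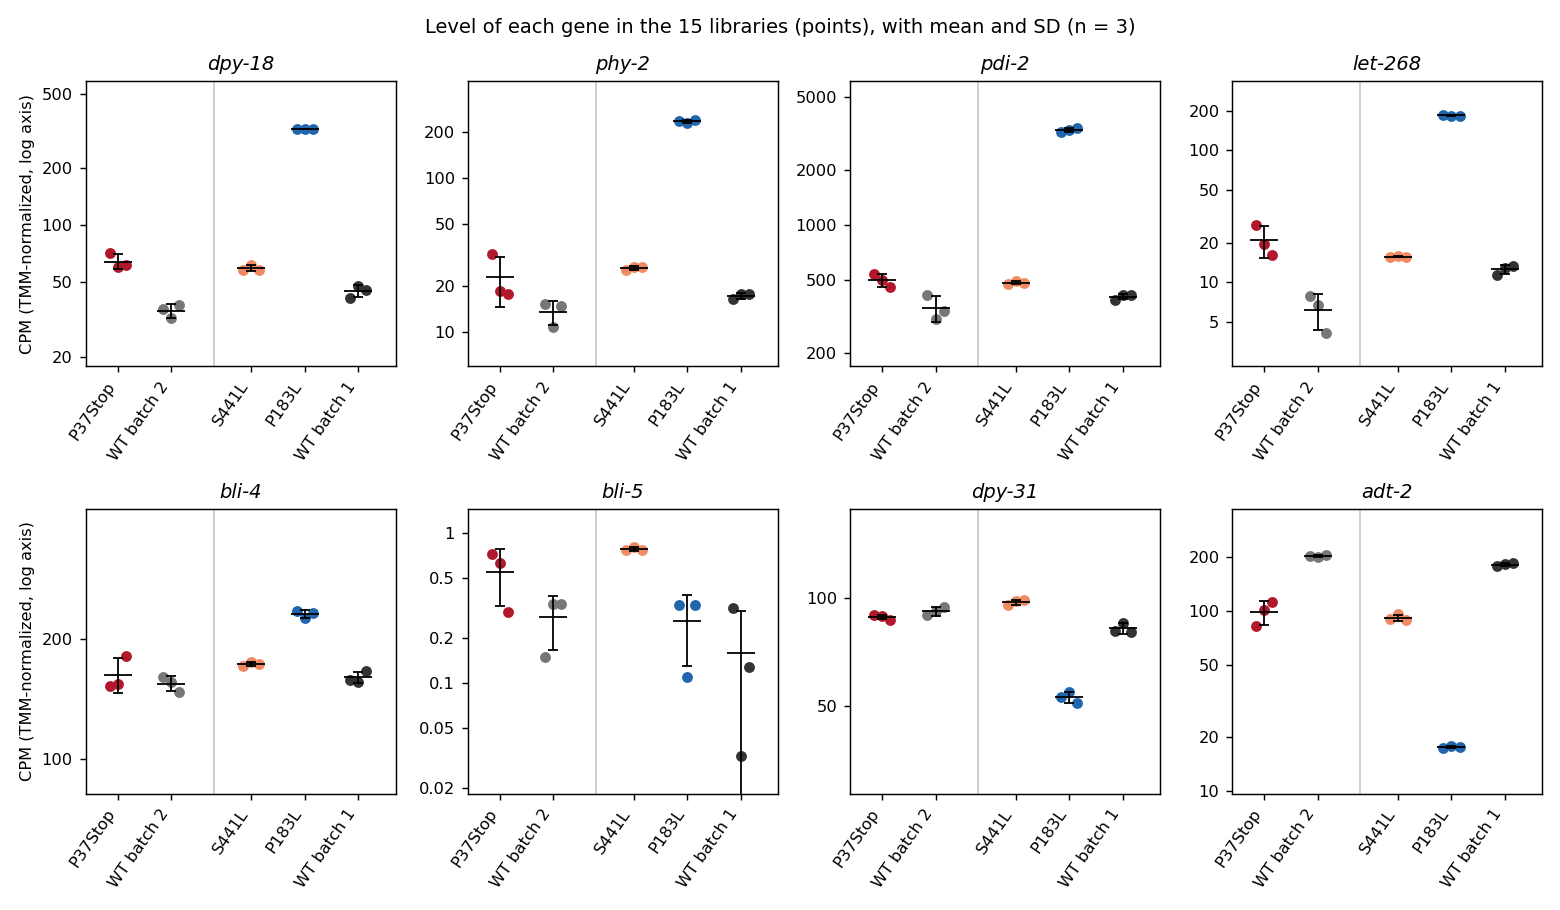
CPM of each of the 8 genes in all 15 libraries, on a logarithmic axis, with P37Stop left of WT batch 2 and S441L and P183L left of WT batch 1. Points are libraries and bars the mean and SD of 3, and the lower SD bar of *bli-5* in WT batch 1 runs off the axis. The P183L libraries of *pdi-2* lie at 3190 to 3377 CPM, while every other library lies between 304 and 539 CPM.

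Per length of transcript, *pdi-2* was the most abundant of the 8 genes in every group, at 343 TPM in P37Stop, 343 TPM in S441L, 3404 TPM in P183L, 202 TPM in WT batch 2 and 237 TPM in WT batch 1. To see whether the subunit genes moved in step, their TPM were set against each other within each library, a comparison chosen after the levels were seen. The share of *phy-2* in the summed α subunit TPM was 43.6%, 42.8% and 43.7% in P183L, against 29.6%, 28.2% and 29.5% in WT batch 1. All P183L libraries lay above all WT libraries (difference 14.3 percentage points, exact permutation test, two-sided p = 0.1, the smallest that 3 against 3 libraries allow). In S441L the share was 31.7%, 31.4% and 32.7%, also above every WT batch 1 library (p = 0.1, exact permutation test). In P37Stop it was 32.4%, 24.6% and 23.4%, and the WT batch 2 libraries, at 31%, 26.3% and 29.6%, lay inside that range (p = 0.5, exact permutation test).

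The TPM of *pdi-2* per α subunit TPM stayed between 4.99 and 7.73 in all libraries. It was 5.55 ± 0.551 in P37Stop and 6.89 ± 0.795 in WT batch 2, and 5.4 ± 0.0562 in S441L and 5.59 ± 0.159 in P183L, against 6.25 ± 0.2 in WT batch 1 (SD, n = 3 each). In each mutant all 3 libraries lay below all 3 WT libraries of the same experiment, which gives p = 0.1, the smallest value possible, in the exact permutation test (two-sided). A ratio of this kind bears only on whether the subunit genes changed unequally, and a test of 3 against 3 libraries cannot settle that.

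**Figure D3:**
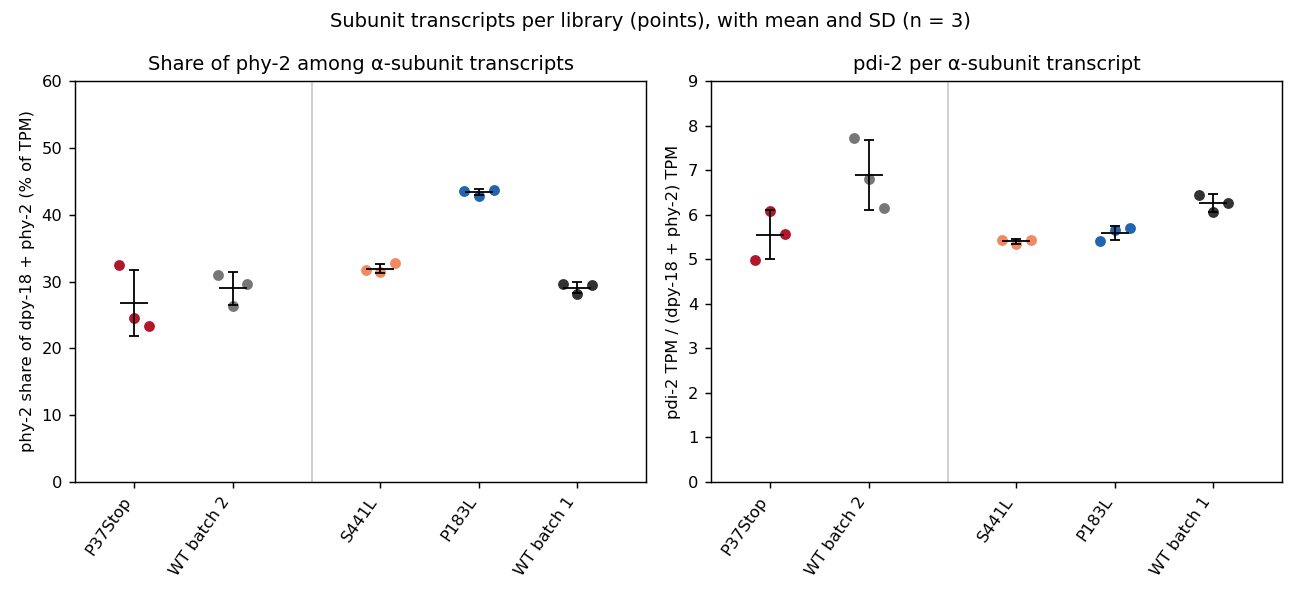
Share of *phy-2* in the summed TPM of *dpy-18* and *phy-2* in percent (left), and TPM of *pdi-2* divided by that sum (right), per library with the mean and SD of 3, P37Stop left of WT batch 2 and S441L and P183L left of WT batch 1. P183L stands apart at 42.8% to 43.7% on the left, while on the right all groups lie between 4.99 and 7.73.

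Of the 4 endoplasmic reticulum genes, *let-268*, the lysyl hydroxylase gene, had the highest fold change in both P37Stop and P183L. In P37Stop it had 27.4, 19.5 and 16.1 CPM, against 7.8, 6.66 and 4.14 CPM in WT batch 2. The groups were well separated, with a log2 fold change of 1.79 (SE 0.25, adjusted p = 0.000518), higher than in 93.8% of the genes tested. The WT control matters for its size, since WT batch 2 itself was lower than WT batch 1, where *let-268* had 11.4, 12.8 and 13.3 CPM (log2 fold change -0.91, SE 0.198, adjusted p = 0.00239). Set against WT batch 1 in place of WT batch 2, P37Stop had a log2 fold change of 0.78 (adjusted p = 0.00513), still called. In S441L *let-268* had 15.6, 15.7 and 15.4 CPM, above all WT batch 1 libraries, with a log2 fold change of 0.36 (adjusted p = 0.000901), which was not called. In P183L it had 187, 182 and 184 CPM, a log2 fold change of 3.84 (SE 0.0554, adjusted p = 7.92e-15). The 5 groups did not overlap as neighbours, in the order P183L, P37Stop, S441L, WT batch 1 and WT batch 2.

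The type IV collagen genes *emb-9* and *let-2*, whose products LET-268 helps to process, were set beside it. None of the log2 fold changes of *emb-9* was called, at -0.37 in P37Stop, -0.06 in S441L and 0.15 in P183L. Those of *let-2* were -0.18 in P37Stop and 0.27 in S441L, neither called, and 0.61 in P183L, where it was called higher. These genes were singled out from the list of collagens after their values were seen.

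The convertase gene *bli-4*, needed for cuticle integrity, was the steadiest of the 8 genes. It had 152, 154 and 181 CPM in P37Stop and 160, 156 and 147 CPM in WT batch 2. These groups overlapped, and the log2 fold change was 0.10 (95% interval -0.10 to 0.30, adjusted p = 0.455). In S441L it had 171, 175 and 173 CPM and in P183L 235, 225 and 232 CPM, against 158, 156 and 166 CPM in WT batch 1. Both mutants lay above WT without overlap, with log2 fold changes of 0.15 (adjusted p = 0.00562) in S441L and 0.48 (SE 0.0396, adjusted p = 1.38e-07) in P183L, both under the limit for a call. The value in P183L passed the limit under several alternatives, at 0.51 without a filter on low counts and 0.98 with total counts as the scaling. At most 408 counts in any library belonged to *mut-2*, which overlaps *bli-4*, against at least 4772 for *bli-4*.

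The Kunitz domain gene *bli-5* was close to the limit of detection. Its counts were 31, 29 and 12 in P37Stop and 6, 14 and 12 in WT batch 2, or 0.725, 0.632 and 0.298 CPM against 0.149, 0.335 and 0.335 CPM. The groups overlapped and the log2 fold change of 1.03 had a 95% interval of -0.58 to 2.65 (adjusted p = 0.335), so that a difference was not detectable at this depth. In S441L its counts were 36, 37 and 34, against 12, 1 and 5 in WT batch 1, or 0.766, 0.803 and 0.765 CPM against 0.315, 0.0328 and 0.127 CPM. S441L lay wholly above WT, with a log2 fold change of 2.26 (95% interval 1.19 to 3.33, adjusted p = 0.00132) that spanned 1.84 to 3.18 when single libraries were left out. In P183L, 16, 5 and 15 counts overlapped with WT batch 1, and the log2 fold change of 0.59 (95% interval -0.81 to 1.99) was not called. The overlapping gene *cope-1*, which encodes a coatomer subunit, had 41.8 ± 4.36 CPM in P37Stop and 33.5 ± 2.73 CPM in WT batch 2, and 46.7 ± 0.414 CPM in S441L and 107 ± 2.68 CPM in P183L, against 36.1 ± 0.9 CPM in WT batch 1 (SD, n = 3 each). Its log2 fold change was 0.41 in S441L and 1.52 in P183L, and its part in the *bli-5* counts was not tested.

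The astacin gene *dpy-31* had 89.6, 89.3 and 87.3 CPM in P37Stop and 89.6, 92.1 and 94.9 CPM in WT batch 2. Every P37Stop library lay below every WT library, but the nearest of each group both round to 89.6 CPM, and the log2 fold change was -0.03 (95% interval -0.20 to 0.14, adjusted p = 0.822). In S441L it had 95.9, 98.1 and 99 CPM, against 81, 85.6 and 80.7 CPM in WT batch 1, without overlap and with a log2 fold change of 0.29 (adjusted p = 5.22e-05) that was not called. In P183L it had 53, 54.7 and 51.1 CPM, below every other library of the series, and fell by 0.69 on the log2 scale (SE 0.0442, adjusted p = 1.01e-08). That decrease depended on the scaling, since with total counts it was -0.19 and the call was lost, and the mean in TPM was 50 in P183L and 44 in WT batch 1.

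Its substrate gene *sqt-3* encodes a cuticle collagen. The log2 fold change of *sqt-3* was 2.16 in P37Stop (adjusted p = 3.73e-05), 1.29 in S441L (adjusted p = 2.78e-09) and 3.61 in P183L (adjusted p = 1.69e-13), and it was called higher in each of these comparisons. In S441L the *sqt-3* mean was 629 ± 38.7 CPM, against 266 ± 29.5 CPM in WT batch 1 (SD, n = 3 each). Between the WT groups *sqt-3* was lower in WT batch 2, with a log2 fold change of -1.52 (adjusted p = 5.44e-07).

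The ADAMTS gene *adt-2* ran opposite to the endoplasmic reticulum genes and was downregulated in each mutant. It had 82.3, 102 and 112 CPM in P37Stop and 203, 201 and 206 CPM in WT batch 2. Every P37Stop library lay far below every WT library, and the log2 fold change was -1.02 (SE 0.108, adjusted p = 9.9e-05), among the lowest 2.0% of the genes tested. In S441L it had 90.3, 95.8 and 89.4 CPM and in P183L 17.3, 17.7 and 17.6 CPM, against 178, 182 and 184 CPM in WT batch 1. Both mutants were again wholly below WT, with log2 fold changes of -0.94 (SE 0.0427, adjusted p = 6.63e-10) in S441L and -3.42 (SE 0.0417, adjusted p = 2.38e-15) in P183L. In P183L 11.6% of the genes tested were as low or lower. The gene kept its call under every alternative and with each library left out, with log2 fold changes of -1.11 to -0.79 in P37Stop, -1.17 to -0.75 in S441L and -3.54 to -2.92 in P183L. By TPM, it lay next below *pdi-2* in the WT groups, at 49.2 in WT batch 2 and 44.4 in WT batch 1, and *dpy-31*, at 48.6 and 44 TPM there, was close to it. In P183L, *adt-2* had 7.6 TPM and *let-268*, at 142 TPM, stood above it.

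The effects of the alleles were then compared with each other in a fit of all 15 libraries, since a call in one mutant and not in another does not show a difference. P37Stop and the other mutants were grown in different experiments, so whatever separates the experiments beyond the WT groups stays in these differences. For P37Stop minus S441L, 1 of 8 genes was called, against 30.7% of the 17180 genes tested (17.1% higher). It was *let-268*, with a difference of 1.43 on the log2 scale (SE 0.256, adjusted p = 0.000308). For *adt-2* the difference was -0.06 (95% interval -0.30 to 0.18), and for *phy-2* 0.15 (95% interval -0.37 to 0.67). For *dpy-18* it was 0.47 (adjusted p = 0.00208), under the limit of 0.5.

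For P37Stop minus P183L, 6 of 8 genes were called, against 65.0% of all genes (35.6% higher and 29.3% lower). The differences were -1.99 for *dpy-18*, -3.02 for *phy-2*, -2.51 for *pdi-2*, -2.13 for *let-268*, 0.58 for *dpy-31* and 2.33 for *adt-2*, with adjusted p from 1.74e-11 to 1.08e-06. Thus the increase of the hydroxylase genes and the decrease of *adt-2* were both larger in P183L. The difference for *dpy-31* fell under the limit with total counts (0.37), without WT batch 1 replicate 2 (0.48) and without WT batch 2 replicate 1 (0.47). That for *bli-4* was -0.45 (adjusted p = 0.000245) and passed the limit in several alternatives, at -0.66 with total counts. For P183L minus S441L, which were grown together, 7 of 8 genes were called, against 72.2% of all genes (34.2% higher and 38.1% lower). The differences ran between 2.45 for *dpy-18* and 3.57 for *let-268* among the endoplasmic reticulum genes, and were -2.39 for *adt-2*, -0.88 for *dpy-31* and -1.58 for *bli-5*. The difference for *bli-5* (adjusted p = 0.0294) was lost without any of the S441L libraries (adjusted p = 0.0607 to 0.0669) and without P183L replicate 2 (-1.19, adjusted p = 0.131). It was also lost in 1 of the 3 alternatives of scaling or replicate block (adjusted p = 0.058). For *bli-4* the difference was 0.42 (adjusted p = 1.19e-05), which was not called but passed the limit in 1 of those 3 alternatives, at 0.64.

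Other genes of the pathway were taken as lists by name. Among 12 genes of hydroxylation and folding in the endoplasmic reticulum, 11 were tested in P183L and all 11 were called higher, beside 40.2% of all genes, with a median log2 fold change of 1.87. In P37Stop 2 of 11 were called higher, against 12.7% of all genes, and none lower, with a median of 0.16. In S441L 3 of 10 were called higher and 1 lower, against 24.2% and 15.8%, with a median of 0.24. The BiP chaperone gene *hsp-4*, which marks the unfolded protein response, had the highest called value in P37Stop and S441L. It had 117 ± 11.5 CPM in P37Stop and 39.3 ± 2.11 CPM in WT batch 2, and 124 ± 1.84 CPM in S441L and 65.5 ± 2.36 CPM in WT batch 1 (SD, n = 3 each), with log2 fold changes of 1.60 and 0.97. Between the WT groups *hsp-4* was called lower in WT batch 2, with a log2 fold change of -0.64. The other called gene of P37Stop was the disulfide isomerase gene *pdi-6* (0.53), which was also called in S441L (0.54) and P183L (2.60) and was named after its values were seen. The chaperone gene *cnx-1*, calnexin, was called lower in S441L (-0.60), and in P183L the highest value was that of the prolyl 4-hydroxylase-like gene *phy-4* (2.85, at 1.4 ± 0.186 CPM in P183L against only 0.185 ± 0.0954 CPM in WT batch 1).

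Of 13 other secreted proteases and inhibitors, 6 were called higher and 1 lower in P37Stop (12.7% and 5.90% of all genes), 6 higher and 1 lower in S441L (24.2% and 15.8%), and 3 higher and 5 lower in P183L (40.2% each). The gene *mlt-11*, which encodes a secreted protein with many Kunitz domains needed for molting, was highest in P37Stop and P183L. It had 67.2 ± 10.4 CPM in P37Stop and 8.95 ± 4.72 CPM in WT batch 2, and 1087 ± 17.1 CPM in P183L, against 34.1 ± 2.59 CPM in WT batch 1 (SD, n = 3 each). In S441L the astacin gene *nas-38* was highest, at 60.3 ± 0.573 CPM in S441L and 7.7 ± 0.604 CPM in WT batch 1. The convertase genes *aex-5* and *egl-3*, relatives of *bli-4* that act on other proteins than collagen, were the lowest called. The log2 fold change of *aex-5* was -0.84 in P37Stop and -5.02 in P183L, and that of *egl-3* was -1.53 in S441L.

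The genes of tyrosine cross-linking did not move one way. Of 8 genes, 1 was called higher and 2 lower in P37Stop (12.7% and 5.90% of all genes), 3 higher and 1 lower in S441L (24.2% and 15.8%), and 3 higher and 2 lower in P183L (40.2% each). The peroxidase gene *mlt-7* was the lowest called in P37Stop and S441L, at 201 ± 46.6 CPM in P37Stop and 389 ± 5.57 CPM in WT batch 2, and at 169 ± 1.04 CPM in S441L and 319 ± 0.673 CPM in WT batch 1 (SD, n = 3 each). In P183L the peroxidase-related gene *skpo-3* was lowest, at 4.86 ± 0.313 CPM in P183L, against 276 ± 3.66 CPM in WT batch 1. Its relative *skpo-2* was highest in P37Stop and P183L, with log2 fold changes of 1.65 and 2.80, and *doxa-1*, which encodes a maturation factor of the dual oxidase, was highest in S441L (1.68). Between the WT groups *skpo-2* was called lower in WT batch 2, at 3.86 ± 0.211 CPM, than in WT batch 1, at 9.3 ± 1.23 CPM (log2 fold change -1.17). In P37Stop it had 11.9 ± 2.38 CPM (SD, n = 3 each).

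Of 15 collagen genes that these enzymes could act on, 14 were tested in P37Stop, of which 6 were called higher, against 12.7% of all genes, and none lower, with a median log2 fold change of 0.46. In S441L 2 of 10 were called higher and 1 lower, against 24.2% and 15.8% of all genes. In P183L 10 of 12 were called higher and 1 lower, against 40.2% each, with a median of 2.92. The furrow collagen gene *dpy-7* was highest in P37Stop, at 45.6 ± 23.9 CPM in P37Stop and 7.25 ± 1.49 CPM in WT batch 2, and *dpy-10* was highest in P183L, at 410 ± 22.9 CPM in P183L, against 18.8 ± 1.29 CPM in WT batch 1 (SD, n = 3 each). The lowest was *dpy-5*, with log2 fold changes of -3.27 in S441L and -0.62 in P183L. Its levels were low, at 0.423 ± 0.152 CPM in S441L and 2.84 ± 0.219 CPM in P183L, against 4.23 ± 0.886 CPM in WT batch 1 (SD, n = 3 each). Between the WT groups *dpy-5* was also the lowest called, at 1.1 ± 0.438 CPM in WT batch 2 (log2 fold change -1.83). In WT batch 2 against WT batch 1, 7 of 13 collagen genes were called lower and 2 higher, beside 14.3% and 18.6% of all genes. There the log2 fold change of *dpy-7* was -0.96 and that of *dpy-10* -1.23, and this comparison shares WT batch 2 with that of P37Stop.

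**Figure D4:**
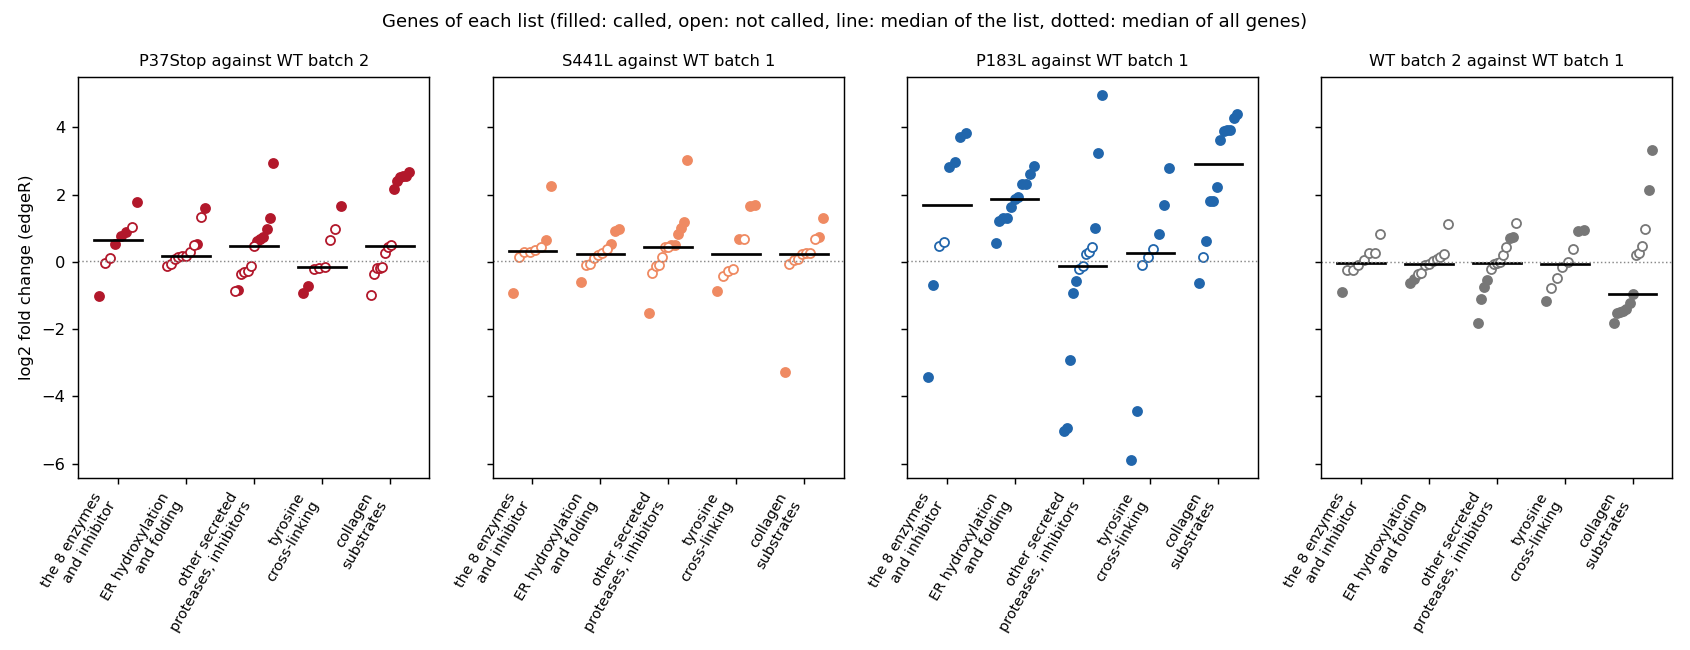
Log2 fold change of every tested gene of the 8 genes described here and of the 4 pathway lists, in P37Stop against WT batch 2, S441L and P183L against WT batch 1, and WT batch 2 against WT batch 1. Points are genes, filled where called, lines are list medians and dotted lines the medians of all genes. In P183L every tested folding gene is filled and above 0, with a median of 1.87, and the collagen genes have a median of 2.92.

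Markers of other cells and stages moved in the same comparisons. The 9 maternal and oocyte genes had a summed level of 60.1 to 161 CPM in P37Stop and 10.6 to 43.3 CPM in WT batch 2, and of 76.2 to 77 CPM in S441L and 478 to 486 CPM in P183L, against 27.7 to 32.1 CPM in WT batch 1. They were called higher for 8 of 9 genes in P37Stop (12.7% of all genes), 9 of 9 in S441L (24.2%) and 9 of 9 in P183L (40.2%). P37Stop replicate 1, which was highest of its group for *dpy-18*, *phy-2*, *pdi-2* and *let-268*, had the lowest maternal sum of its group, 60.1 CPM. WT batch 2 replicate 1, which was highest of its group for *phy-2*, *pdi-2* and *let-268*, had the highest maternal sum of its group, 43.3 CPM. The 4 body wall muscle markers summed to 12966 to 13401 CPM in S441L and 2141 to 2219 CPM in P183L, against 16253 to 18526 CPM in WT batch 1, and to 10060 to 11889 CPM in P37Stop and 13441 to 15238 CPM in WT batch 2. The members of this list did not all move one way: in P183L 3 of 4 were called lower, the log2 fold change of the myosin gene *unc-54* being -3.84, while that of the muscle regulator gene *hlh-1* was 1.29, called higher. None of the 4 muscle markers was called in S441L or P37Stop (40.0% and 18.6% of all genes in either direction). The sum of the 5 neuron markers was 931 to 940 CPM in S441L and 258 to 262 CPM in P183L, against 1779 to 1855 CPM in WT batch 1, and 1529 to 1622 CPM in P37Stop, against 1817 to 2051 CPM in WT batch 2. In S441L 1 of these 5 genes was called lower (15.8% of all genes), *egl-21*, with a log2 fold change of -1.38. The other 4 were not called there, among them *rab-3* at 0.29. All 5 were called lower in P183L (40.2% of all genes), and none was called in P37Stop (18.6% in either direction). The 5 intestine markers gave 510 to 515 CPM in P183L and 2567 to 2649 CPM in S441L, against 2646 to 3001 CPM in WT batch 1. In P37Stop they gave 1218 to 1434 CPM, against 2004 to 2327 CPM in WT batch 2. Of these genes 3 of 5 were called lower in P183L (40.2% of all genes) and 3 of 5 in P37Stop (5.90%). The log2 fold changes of *elt-2* (0.10) and *elt-7* (0.20) in P183L were not called. In S441L 1 of 5 was called higher (24.2%), *act-5*, with a log2 fold change of 1.17, and none lower.

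Cytosolic ribosomal protein genes were called lower for 75 of 77 tested genes in P183L (40.2% of all genes), 19 of 77 in S441L (15.8%) and 13 of 77 in P37Stop (5.90%). Epidermal markers summed to 576 to 590 CPM in P183L and 303 to 317 CPM in S441L, against 350 to 381 CPM in WT batch 1, and to 242 to 283 CPM in P37Stop and 266 to 302 CPM in WT batch 2. The epidermal list was split in P183L, where 3 of 5 genes were called higher and 1 lower (40.2% of all genes each). The highest was *che-14*, with a log2 fold change of 3.03, and the lower gene was *elt-3*, at -0.89. None of the 5 was called in S441L or P37Stop (40.0% and 18.6% of all genes in either direction). The 4 pharynx markers summed to 1204 to 1329 CPM in P37Stop and 2044 to 2426 CPM in WT batch 2, and to 646 to 666 CPM in S441L and 417 to 424 CPM in P183L, against 456 to 494 CPM in WT batch 1. The WT groups thus differed from each other in this sum as well, with WT batch 2 above WT batch 1, and in P183L 2 of its 4 genes were called higher and 2 lower. No marker of any list was at 0 in all libraries of a group. The part of these shifts in the changes of the collagen processing genes was not tested.

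For each gene, the gene with the most similar profile over the 15 libraries was found among 14685 genes tested in every comparison, by the root mean square difference of log2-CPM after each gene was centred on its own mean. The closest match was that of *bli-4*, the gene that varied least, with *sos-1* (0.0714), followed by *dpy-31* with *aakb-1* (0.0849). Among the endoplasmic reticulum genes, *pdi-2* was nearest to *nab-1* (0.127), *dpy-18* to *F53A2.3* (0.146), *let-268* to *rml-4* (0.174) and *phy-2* to *bro-1* (0.204). The profile of *let-268* and that of *rml-4* ran close in level as well, with *rml-4* at 17.2 ± 4.82 CPM in P37Stop and 6.55 ± 1.31 CPM in WT batch 2, and at 188 ± 3.88 CPM in P183L, against 12 ± 0.845 CPM in WT batch 1 (SD, n = 3 each). For *adt-2* the nearest gene was *ant-1.1* (0.19), at 1228 ± 11.1 CPM in P183L, against 11432 ± 432 CPM in WT batch 1. The sparse counts of *bli-5* had no near match, and *cbs-1* was closest at 0.598. For the 8 genes, the median of this measure over all genes lay between 0.752 and 1.76.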

How the data were processed

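The authors deposited 1 table of expected counts (estimated read counts per gene), not scaled to library size. The submitters' processing notes name fastp, STAR, Picard, HTSeq, DESeq2 and ce11, and which route made the table is not given in the sources used here. Of its values 3.7% were not whole and were rounded. One row without a gene ID held 100% of a column total and was left out. Ribosomal RNA took 0.348 to 1.24% of the counts. Ensembl release 115 (WBcel235) gave names, positions and exon lengths, the last for all but 54 IDs. No replicate pair agreed within sampling noise (chi-square per degree of freedom 3.28 to 53). Replicates were biological, from individual plates. Intervals on counts would cover counting error only, so errors given are over replicates.

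Separate fits set each mutant against the WT grown beside it, and WT batch 2 against WT batch 1, with filterByExpr (minimum count 10), TMM and the quasi-likelihood test of edgeR 4.0.16 (limma 3.58.1, R 4.3.3), with Benjamini-Hochberg adjustment over all genes tested and a log2 limit of 0.5. Adjusted p in the text are from this test. CPM used TMM over all 15 libraries, so ratios of CPM means can differ slightly from the fitted fold changes. TPM used unscaled counts and summed exon length. Differences between alleles were contrasts in a fit of all libraries. Fits were tested on simulated data that varied less than P37Stop against WT batch 2 and than the WT groups. That test therefore does not cover the noise of these comparisons. The members and lists were chosen with earlier results of these data known. Beside the 8 genes and *eff-1*, the genes named by rule were the called genes with the highest and lowest log2 fold change of each list and the nearest profile of each gene. Genes such as *emb-9*, *let-2*, *pdi-6* and single cell type markers were named outside this rule, as were *sqt-3*, *dpy-7* and *dpy-10* in some comparisons. The collagen list left out *rol-6* and the neuron markers *unc-119*, which transgenes carry.

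Alternatives were DESeq2 1.42.0 in place of edgeR, scaling by DESeq2 size factors or by total counts, no filter on low counts, only genes above 1 TPM, all 15 libraries in 1 fit, the other or both WT groups as the control, a replicate block, and leaving out each replicate. Sample numbers did not pair the samples (correlation of same-numbered deviations -0.110 to 0.097).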

Additional observations from a re-analysis of the deposited data

Results flagged for a closer look

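Differences between the effects of alleles were picked out where the contrast itself passed the test (edgeR's quasi-likelihood test over all 15 libraries, Benjamini-Hochberg adjustment). P37Stop minus S441L gave 1.43 on the log2 scale for *let-268* (adjusted p = 0.000308). Between the WT groups *let-268* was itself lower in WT batch 2 (log2 fold change -0.91). P37Stop minus P183L gave -1.99 for *dpy-18*, -3.02 for *phy-2*, -2.51 for *pdi-2*, -2.13 for *let-268*, 0.58 for *dpy-31* and 2.33 for *adt-2*. P183L minus S441L gave 2.45 for *dpy-18*, 3.16 for *phy-2*, 2.77 for *pdi-2*, 3.57 for *let-268*, -1.58 for *bli-5*, -0.88 for *dpy-31* and -2.39 for *adt-2*. That for *bli-5* was lost in 1 of the 3 alternatives of scaling or replicate block and when some single libraries were left out. Experiment and allele cannot be told apart in the differences that involve P37Stop beyond what the WT groups remove.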

How the results depend on the processing

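For P37Stop, 5 genes were called, and 3 with WT batch 1 or with the WT groups of both experiments as the control, and 3 to 5 when single replicates were left out. For S441L, 3 were called, and 5 with total counts or with WT batch 2 as the control. The number whose effect differed between P37Stop and S441L was 1, and 1 to 2 with single replicates left out, where *dpy-18* (0.51) was added without P37Stop replicate 2. Signs turned only for values that were not called. They were *dpy-31* in P37Stop (0.19 with total counts, 0.01 with genes above 1 TPM, 0.13 with WT batch 1), *bli-5* in P183L (-0.08 with WT batch 2) and *bli-4* between the WT groups (-0.05 with total counts and -0.05 in the fit of all libraries). Between P37Stop and S441L the difference for *phy-2* was -0.05 without WT batch 2 replicate 2 and -0.18 without P37Stop replicate 1, with 0.28 as its highest without one replicate, that for *bli-4* 0.01 without P37Stop replicate 1 and 0.00 without replicate 2 with -0.19 as its lowest, and that for *adt-2* 0.05 without P37Stop replicate 1 with -0.23 as its lowest. Between P37Stop and P183L the difference for *bli-5* was -0.67 without WT batch 1 replicate 1, -0.03 without P183L replicate 2 and -0.04 without WT batch 2 replicate 1, with 0.70 as its highest. The cause was not tested. In single genes, 716 values kept their direction and side of the threshold, 22 passed it newly and 20 no longer did. A replicate block by sample number left the counts at 5, 3, 6 and 1 called and changed no call. The number of 3 libraries per group and the counts of *bli-5* limit the precision, and the filter above 1 TPM removed *bli-5*, which left 2 called genes in S441L.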
